A study of Mus musculus with 6 samples.

Results

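The circadian clock genes measured here were the core activators Arntl and Clock, the repressors Per1, Per2, Per3, Cry1 and Ciart, the nuclear receptors Nr1d1 and Nr1d2, and the output factor Dbp. They were taken by name from the table of read counts, which held 1 row for each of the 10 symbols among 53801 genes, and all 10 were among the 23975 genes with enough counts to test. Polyadenylated RNA was sequenced from a brain hemisphere of male C57BL/6 mice about 70 weeks old, 3 with both copies of Bahd1 intact (Bahd1+/+, Bahd1-WT) and 3 without either (Bahd1-/-, Bahd1-KO). Bahd1 encodes a chromatin repressor, and it was inactivated in the whole animal and throughout life, so that its loss in brain cells cannot be told apart from effects of its loss elsewhere. The mice lived under a light-dark cycle, and the hour at which each brain was taken is not given in the sources used here. The libraries held 42297150 to 93557948 counted reads, and Bahd1 had 844 to 1383 counts in the Bahd1-WT libraries against 0, 14 and 1 in Bahd1-KO replicates 1, 2 and 3. In a whole hemisphere, fewer cells of a type and less RNA per cell cannot be told apart.

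The clock of mammalian cells is a feedback loop. ARNTL (BMAL1) and CLOCK bind E-box elements and switch on the Per, Cry, Ciart, Nr1d and Dbp genes, whose PER, CRY and CIART proteins then block the activators, while NR1D1 and NR1D2 (REV-ERB) silence Arntl through ROR elements (RORE) and DBP acts on D-box elements. Arntl transcripts therefore peak at the opposite time of day to those of Nr1d1, Nr1d2, Dbp and the Per genes. The suprachiasmatic nucleus sets the rhythm for the animal, but cortex, hippocampus and cerebellum hold weaker clocks of their own, and a hemisphere averages over all of them. Per1 is also induced within minutes by neuronal activity and by glucocorticoids.

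Control elements just upstream of the start differ between the clock genes, and a member of each kind is shown to set beside its level. The RefSeq table of starts on GRCm38.p6 matched 9 of the 10 genes and gave no entry for Per2. The 250 bases before each start are printed 5′ to 3′ on the strand of the gene, with capitals marking matches to an E-box (CACGTG), an E′-box (CACGTT), a D-box (TTATGNAA) or a RORE core (TNGGTCA), each searched on both strands.
Per1, chr11:69098699-69098948, strand +: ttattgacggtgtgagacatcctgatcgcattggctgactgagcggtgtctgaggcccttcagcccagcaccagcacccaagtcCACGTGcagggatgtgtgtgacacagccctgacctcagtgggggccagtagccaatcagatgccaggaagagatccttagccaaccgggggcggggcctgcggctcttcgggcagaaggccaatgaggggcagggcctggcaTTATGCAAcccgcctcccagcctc
Nr1d1, chr11:98775378-98775627, strand -: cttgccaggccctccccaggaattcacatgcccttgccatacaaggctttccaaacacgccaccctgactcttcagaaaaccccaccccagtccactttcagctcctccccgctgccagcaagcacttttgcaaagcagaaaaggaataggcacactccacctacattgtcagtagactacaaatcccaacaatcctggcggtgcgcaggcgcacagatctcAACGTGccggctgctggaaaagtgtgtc
Ciart, chr3:95882229-95882478, strand -: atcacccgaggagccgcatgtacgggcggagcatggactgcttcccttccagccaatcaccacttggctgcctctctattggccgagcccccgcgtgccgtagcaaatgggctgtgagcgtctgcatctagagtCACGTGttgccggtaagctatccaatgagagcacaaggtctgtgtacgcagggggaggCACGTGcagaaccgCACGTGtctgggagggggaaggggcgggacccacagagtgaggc
Arntl, chr7:113207215-113207464, strand +: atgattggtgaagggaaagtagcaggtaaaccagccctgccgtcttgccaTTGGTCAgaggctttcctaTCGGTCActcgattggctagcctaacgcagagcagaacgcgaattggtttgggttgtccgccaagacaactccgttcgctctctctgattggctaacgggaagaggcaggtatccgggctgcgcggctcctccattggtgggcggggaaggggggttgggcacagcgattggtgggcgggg
Per1 is shown as the member with the largest estimate of a difference, with an E-box 166 to 161 bases and a D-box 24 to 17 bases before its first listed start. Nr1d1 is shown beside it, with an E′-box 28 to 23 bases before the start. Ciart, which held 3 E-boxes within 116 bases of its start, is shown as the member with the most E-boxes. Arntl stands for the other arm of the loop, with RORE cores at 200 to 194 and 181 to 175 bases. Cry1 held an E-box and an E′-box, Per3 held 2 D-boxes and 1 RORE core, and the windows of Dbp, Nr1d2 and Clock held no match. Among 32841 windows of this length, 6.02% held an E-box, 3.85% an E′-box, 3.07% a D-box, 9.19% a RORE core and 1.55% a cAMP response element (TGACGTCA), which no clock gene held here. No match shared a base with another. A match in letters describes the sequence and does not show that a factor binds it.

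Levels are given as CPM, read counts scaled by library size with TMM factors. The call of a difference required 2-fold or more, and a Benjamini-Hochberg adjusted p-value below 0.05 by edgeR's quasi-likelihood test. None of the 10 clock genes was called, where 2 of all 23975 genes were (0.00834%). In the same edgeR test 4670 genes had an adjusted p-value under 0.1, without a limit on fold, among them Per1, Nr1d1 and Nr1d2. At an unadjusted p-value under 0.05 there were 4 of the 10 clock genes, where 31.8% of all genes passed, 4760 higher and 2867 lower in Bahd1-KO brains. Those higher were Per1 and Nr1d1, and those lower were Nr1d2 and Clock. DESeq2's Wald test called Per1 and Nr1d1 and no other clock gene, with and without its prior on fold changes, where it called 10.5% and 11.4% of all genes. The median log2 fold change of the 10 genes was 0.17, against -0.061 for all genes tested, with 6 estimates above 0 and 4 below.

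**Figure D1:**
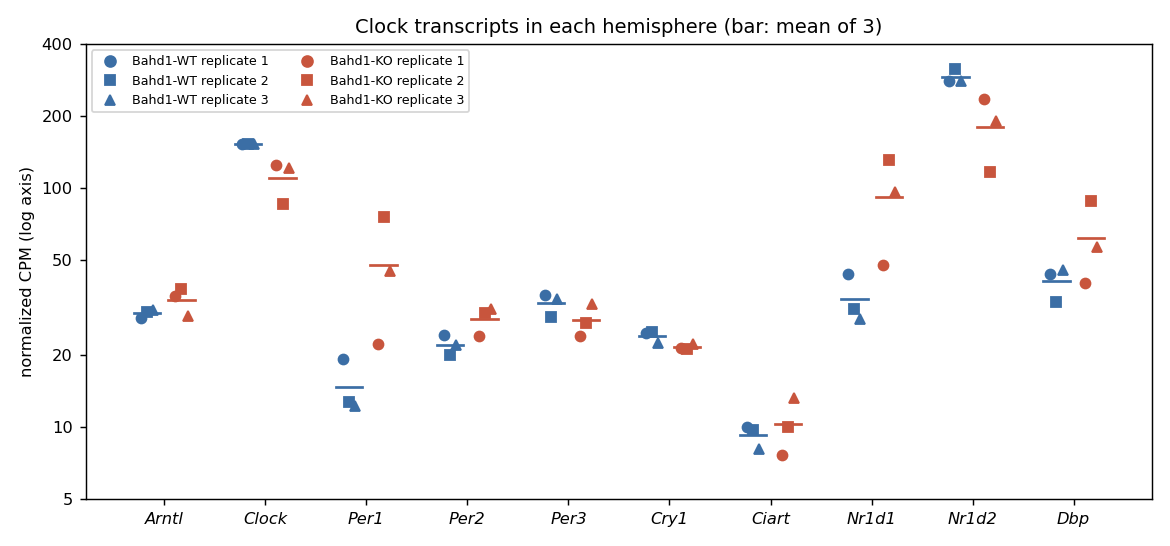
Normalized CPM (log axis) of the 10 clock genes in each of the 6 hemispheres, with replicates as circles, squares and triangles and a bar at the mean of 3. The Bahd1-KO libraries lie above all Bahd1-WT libraries for Per1 and Nr1d1, below them for Clock, Nr1d2 and Cry1, and among them for the other 5 genes.

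Per1 (ENSMUSG00000020893, chromosome 11, 69095217 to 69109960, GRCm38), the period gene with the fastest response to stimulation, had 19.3, 12.7 and 12.2 CPM in Bahd1-WT replicates 1, 2 and 3 and 22.1, 75.9 and 44.9 CPM in Bahd1-KO replicates 1, 2 and 3. The groups did not overlap, but Bahd1-KO replicate 1 was much closer to the Bahd1-WT libraries than to Bahd1-KO replicate 2. On the log2 scale edgeR put the difference at 1.69 (standard error 0.41), and the adjusted p-value was 0.0634. Without Bahd1-KO replicate 1 the gene was called, with a difference of 2.07 (edgeR, adjusted p = 0.00529), where 3988 of 23690 genes were called. Without Bahd1-KO replicate 2 the difference was 1.19. With all samples, DESeq2 without the prior put the difference at 1.72 (adjusted p = 0.000607). Per2, its closest relative and a direct brake on CLOCK and ARNTL, had 24.1, 20.05 and 22.1 CPM in the Bahd1-WT and 24.1, 30.0 and 31.2 CPM in the Bahd1-KO replicates. Its highest Bahd1-WT and lowest Bahd1-KO libraries met at 24.1 CPM, and the log2 fold change of 0.36 (standard error 0.18) had an adjusted p-value of 0.192 in edgeR. Per3, a weaker period gene that is read mainly as a marker of phase, had 35.5, 28.9 and 34.5 CPM in Bahd1-WT and 23.9, 27.2 and 32.6 CPM in Bahd1-KO replicates. These groups overlapped, and the estimate had the opposite sign to those of Per1 and Per2 (log2 fold change -0.24, standard error 0.18, adjusted p = 0.379 in edgeR).

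Cry1, the strongest of the CRY repressors, varied least among the Bahd1-KO mice. It had 24.7, 25.0 and 22.6 CPM in the Bahd1-WT replicates and 21.4, 21.2 and 22.2 CPM in the Bahd1-KO replicates. Every Bahd1-KO library was below every Bahd1-WT library, with an estimate of -0.16 on the log2 scale (standard error 0.16, adjusted p = 0.511 in edgeR). Ciart (CHRONO), which binds the activators at E-boxes, was the least abundant member per library, with 10.01, 9.75 and 8.07 CPM in Bahd1-WT and 7.61, 9.98 and 13.2 CPM in Bahd1-KO replicates. The Bahd1-KO values lay on both sides of the Bahd1-WT values, and the log2 fold change was 0.15 (standard error 0.24, adjusted p = 0.692 in edgeR).

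The nuclear receptors Nr1d1 and Nr1d2 share the task of silencing Arntl and normally cycle together. Here their estimates had opposite signs. Nr1d1 (ENSMUSG00000020889, chromosome 11, 98767932 to 98775333, GRCm38) had 43.6, 31.2 and 28.2 CPM in Bahd1-WT replicates 1, 2 and 3 and 47.6, 131 and 95.7 CPM in Bahd1-KO replicates 1, 2 and 3. As with Per1, Bahd1-KO replicate 1 lay just above the highest Bahd1-WT library and Bahd1-KO replicates 2 and 3 far above it. The log2 fold change was 1.41 (standard error 0.34, adjusted p = 0.0634 in edgeR). Without Bahd1-KO replicate 1 it was 1.75 and called (adjusted p = 0.00529 in edgeR), where 3988 of 23690 genes were called. Without Bahd1-KO replicate 2 it was 1.07. Nr1d1 shares 263 bases, 8.55% of its exons, with Thra on the opposite strand, and counting was stated to use strand. Thra itself had a log2 fold change of 1.20, and whether its reads entered the counts of Nr1d1 was not tested. Nr1d2 (ENSMUSG00000021775, chromosome 14, 18204054 to 18239127, GRCm38) had 281, 314 and 280 CPM in the Bahd1-WT replicates and 235, 116 and 190 CPM in the Bahd1-KO replicates. Its libraries did not overlap either, with Bahd1-KO replicate 2 lowest where it was highest for Nr1d1 (log2 fold change -0.69, standard error 0.24, adjusted p = 0.0999 in edgeR).

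Arntl, the activator that the NR1D receptors silence, had 28.6, 30.1 and 30.9 CPM in the Bahd1-WT replicates and 35.2, 37.8 and 29.2 CPM in the Bahd1-KO replicates. Bahd1-KO replicates 1 and 2 were above every Bahd1-WT library and replicate 3 was within their range (log2 fold change 0.19, standard error 0.17, adjusted p = 0.446 in edgeR). Clock, its partner, whose transcript cycles little in most tissues, had 152, 153 and 153 CPM in the Bahd1-WT replicates. Their spread was 0.325 CPM (SD, n = 3), and 7.71 CPM after the offset for GC content and length described below. Without the offset the Bahd1-KO replicates had 125, 85.6 and 121 CPM, all below (log2 fold change -0.47, standard error 0.18, adjusted p = 0.116 in edgeR). Dbp, a PAR bZIP factor and one of the transcripts with the widest daily swing, had 43.6, 33.3 and 45.2 CPM in Bahd1-WT and 40.0, 88.0 and 56.4 CPM in Bahd1-KO replicates. Bahd1-KO replicate 1 was inside the Bahd1-WT range and replicates 2 and 3 were above it (log2 fold change 0.60, standard error 0.28, adjusted p = 0.178 in edgeR). Without Bahd1-KO replicate 2 the Dbp estimate was 0.25, and without replicate 1 it was 0.86. Dbp shares 539 bases, 18.0% of its exons, with Sphk2 on the opposite strand.

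By these levels, 2 clock genes were separated upward and 3 downward, where 20.6% of all genes were separated upward and 19.3% downward. With total counts or DESeq2's size factors the clock genes split 3 and 2 (all genes 5752 and 3502 with total counts, 5077 and 4424 with size factors). Relative to exonic length, the order in Bahd1-WT brains ran from Nr1d2 at 53.9 ± 3.5 CPM per kilobase (SD, n = 3) through Dbp at 13.6 ± 2.2, Nr1d1 at 11.2 ± 2.7, Clock at 11.1 ± 0.024 and Cry1 at 7.21 ± 0.40 to a group of Ciart, Arntl, Per2, Per3 and Per1 between 4.10 and 2.62. Neighbours from Dbp to Clock, and from Ciart to Per3, did not differ beyond their spread. In Bahd1-KO brains Nr1d2 at 33.3 ± 11 and Nr1d1 at 29.7 ± 14 CPM per kilobase overlapped, and Per1 at 8.46 ± 4.8 stood level with Clock at 8.05 ± 1.6. The spread between mice was also larger in Bahd1-KO for every member but Cry1, as it was for 85.9% of 13261 expressed genes. On the log2 scale the SD of Per1 was 0.36 in Bahd1-WT and 0.89 in Bahd1-KO, that of Nr1d1 0.33 and 0.75, and that of Nr1d2 0.092 and 0.52. That of Cry1 was 0.082 and 0.036. After an offset for GC content and length, described below, these SDs were closer for Per1 (0.20 and 0.24), Nr1d1 (0.25 and 0.37) and Nr1d2 (0.046 and 0.14), and 65.1% of expressed genes had the larger SD in Bahd1-KO.

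Ratios between transcripts of opposite phase within a library do not depend on library size and are given as a description, with no test. The log2 ratio of Nr1d1 to Arntl was 0.61, 0.052 and -0.13 in Bahd1-WT replicates 1, 2 and 3 and 0.44, 1.79 and 1.71 in Bahd1-KO replicates 1, 2 and 3. Bahd1-KO replicates 2 and 3 thus stood above the Bahd1-WT range and replicate 1 lay inside it. For Per1 to Arntl the values were -0.57, -1.24 and -1.34 against -0.67, 1.00 and 0.62, and for Dbp to Arntl 0.61, 0.14 and 0.55 against 0.18, 1.22 and 0.95, with the same libraries high. The ratio of Nr1d2 to Arntl went the other way, at 3.30, 3.38 and 3.18 in Bahd1-WT against 2.74, 1.62 and 2.70 in Bahd1-KO, where all 3 libraries were lower. Per3 to Arntl was 0.31, -0.059 and 0.16 in the Bahd1-WT and -0.55, -0.48 and 0.16 in the Bahd1-KO replicates. Per2 to Arntl and Ciart to Arntl overlapped between genotypes, with differences of group means of 0.18 and -0.064. Per2 to Cry1 was -0.035, -0.32 and -0.028 in Bahd1-WT and 0.17, 0.50 and 0.49 in Bahd1-KO libraries, which did not overlap. The 7 genes that peak opposite to Arntl differed in sign relative to it: the mean ratio was higher in Bahd1-KO for 4 of them (Dbp, Nr1d1, Per1 and Per2) and lower for 3 (Per3, Nr1d2 and Ciart).

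**Figure D2:**
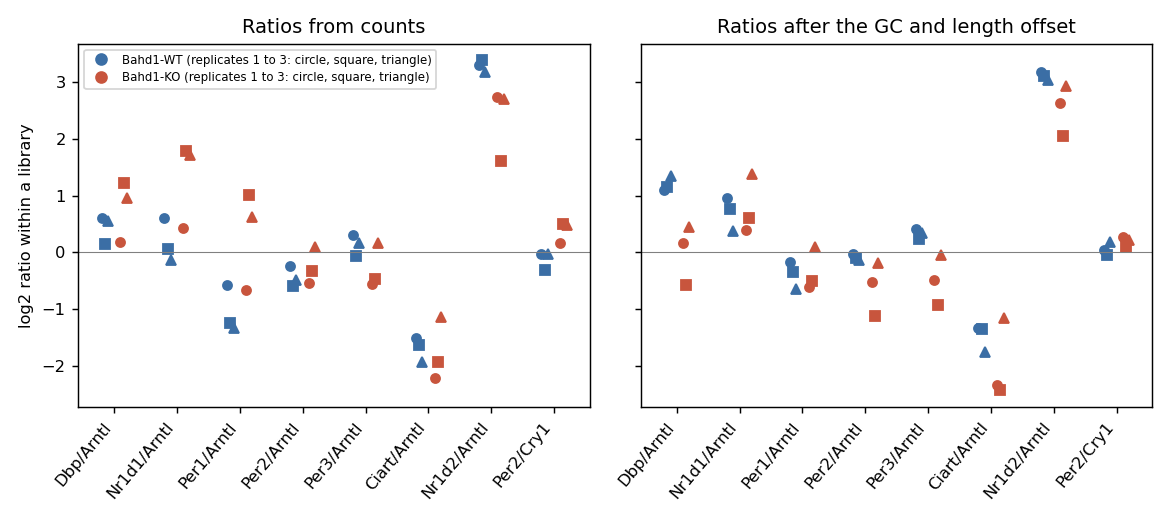
Log2 ratios within each library between clock transcripts of different phase, from the counts on the left and after the GC and length offset on the right, with Bahd1-WT in blue and Bahd1-KO in red. On the left Nr1d1/Arntl and Per1/Arntl are high in Bahd1-KO replicates 2 and 3, while Nr1d2/Arntl is low in all 3 Bahd1-KO libraries, and on the right Dbp/Arntl is below the Bahd1-WT range in all 3.

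The sign and size of the estimates followed the base composition of the transcripts. Clock and Nr1d2, with a GC content of 40.9 and 41.8% in their longest transcript, had the lowest estimates of the 10, and Nr1d1 and Per1, with 56.8 and 59.4%, the highest. Arntl had 48.2%, Cry1 51.6%, Ciart 52.2%, Per3 52.4%, Per2 54.3% and Dbp 61.6%. Over the 10 genes the Spearman correlation of log2 fold change with GC content was 0.84, a description across genes, which share the same 6 libraries. Expressed genes of all kinds showed the same slope, from a median log2 fold change of -0.55 in the lowest of 10 equal groups by GC content to 1.395 in the highest. Dbp, the member richest in GC, was an exception at 0.60, under the 1.395 of its group. Nr1d1 at 1.41 was above the 0.89 of its own group, and Cry1 at -0.16 and Per3 at -0.24 were below the 0.27 of theirs.

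**Figure D3:**
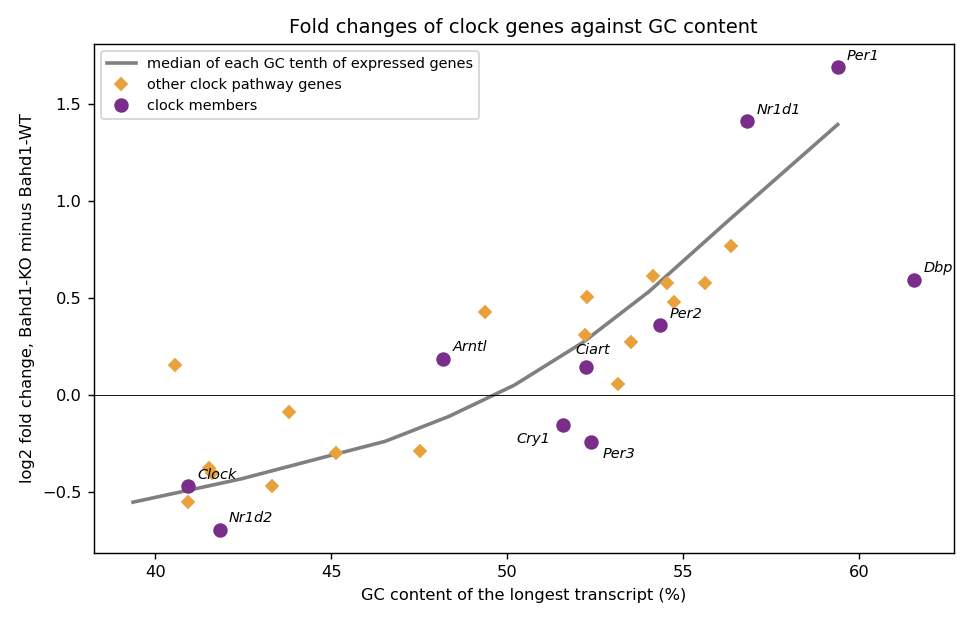
Log2 fold change (Bahd1-KO minus Bahd1-WT) against the GC content of the longest transcript for the 10 clock members (purple) and 18 other clock pathway genes (orange), with the grey line joining the medians of 10 groups of expressed genes by GC content. Clock and Nr1d2 have the lowest and Per1 and Nr1d1 the highest estimates of the members, and Dbp lies below the line.

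The libraries differed in this respect one by one and not only by genotype. The median deviation of the GC-richest group of genes minus that of the GC-poorest, on the log2 scale, was -1.27, -0.88 and -0.61 in Bahd1-WT replicates 2, 3 and 1 and -0.11, 0.77 and 2.16 in Bahd1-KO replicates 1, 3 and 2. Nr1d2 was lowest and Clock was lowest in Bahd1-KO replicate 2, where the gap was widest, while Per1 and Nr1d1 were highest in Bahd1-KO replicate 2, next in replicate 3 and then in replicate 1. Cry1 stayed between 21.2 and 25.0 CPM over all 6 libraries. The gap did not overlap between the genotypes. Base composition and genotype therefore cannot be told apart in these 6 libraries, with an offset or without.

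**Figure D4:**
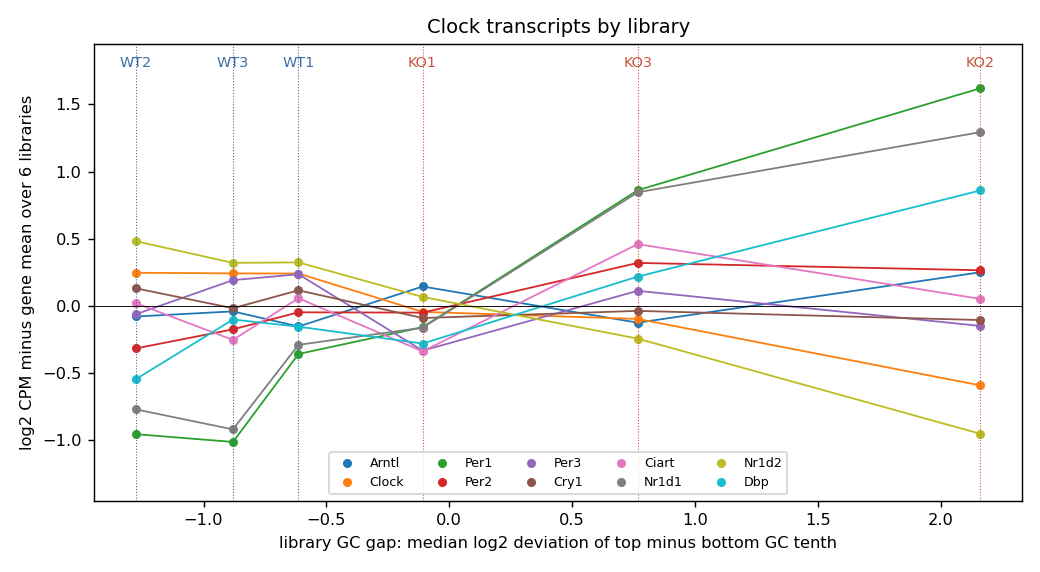
Log2 CPM of each clock gene minus its mean over the 6 libraries (vertical axis) against the library's GC gap, the median deviation of GC-rich genes minus that of GC-poor genes (horizontal axis). Per1, Nr1d1 and Dbp are highest and Nr1d2 and Clock lowest in Bahd1-KO replicate 2, which has the widest gap, 2.16.

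The genes were also fitted with an offset for each library, taken from a smooth curve of log2 CPM on GC content and length. Such an offset also takes out any difference between genotypes that follows GC content or length. The offset moved the median log2 fold change of all genes from -0.061 to 0.089, and values below are best read against that shift. No clock gene was called with it, where 4 of 23975 genes were. The median of the 10 clock genes was then -0.057, with 4 estimates above 0 and 6 below. At an unadjusted p-value under 0.05 there were 4 clock genes higher in Bahd1-KO, Per1, Nr1d1, Arntl and Clock, against 17.1% of all genes, and 2 lower, Dbp and Per3, against 5.65%. The estimate of Per1 went from 1.69 to 0.48 (standard error 0.15, adjusted p = 0.107 in edgeR) and that of Nr1d1 from 1.41 to 0.54 (standard error 0.18, adjusted p = 0.128 in edgeR). Dbp changed sign, with 57.9, 60.1 and 71.9 CPM after the offset in Bahd1-WT replicates 1, 2 and 3 and 41.2, 31.0 and 40.7 in Bahd1-KO replicates 1, 2 and 3. All its Bahd1-KO libraries were then below all its Bahd1-WT libraries, with an estimate of -0.75 (standard error 0.14, adjusted p = 0.0736 in edgeR). Clock changed sign as well, to 0.22 (standard error 0.094), with 125, 111 and 123 CPM in Bahd1-WT and 131, 151 and 137 in Bahd1-KO libraries. Per2 and Ciart moved to -0.090 and -0.025, and Nr1d2 to -0.14. Arntl, Per3 and Cry1 kept their sign and had larger estimates, that of Cry1 being -0.23 (standard error 0.12, adjusted p = 0.267 in edgeR). Arntl had 27.0, 27.0 and 28.3 CPM after the offset in Bahd1-WT and 36.7, 46.0 and 29.8 in Bahd1-KO libraries, with an estimate of 0.45 (standard error 0.15, adjusted p = 0.124 in edgeR). For Per3 it was -0.39 (standard error 0.11, adjusted p = 0.0933 in edgeR), with 31.9 to 36.0 CPM in Bahd1-WT and 24.2 to 28.8 CPM in Bahd1-KO libraries. After the offset 3 clock genes were separated upward (Per1, Arntl and Clock) and 4 downward (Per3, Cry1, Nr1d2 and Dbp), where 20.1% of all genes were separated upward and 7.72% downward. Without Bahd1-KO replicate 1 the estimates under the offset were 0.64 for Per1 and 0.75 for Nr1d1 (edgeR, adjusted p = 0.0156 and 0.0114), which stayed under 2-fold. These were the highest with 1 sample left out, and the lowest were 0.38 for Per1 and 0.41 for Nr1d1.

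**Figure D5:**
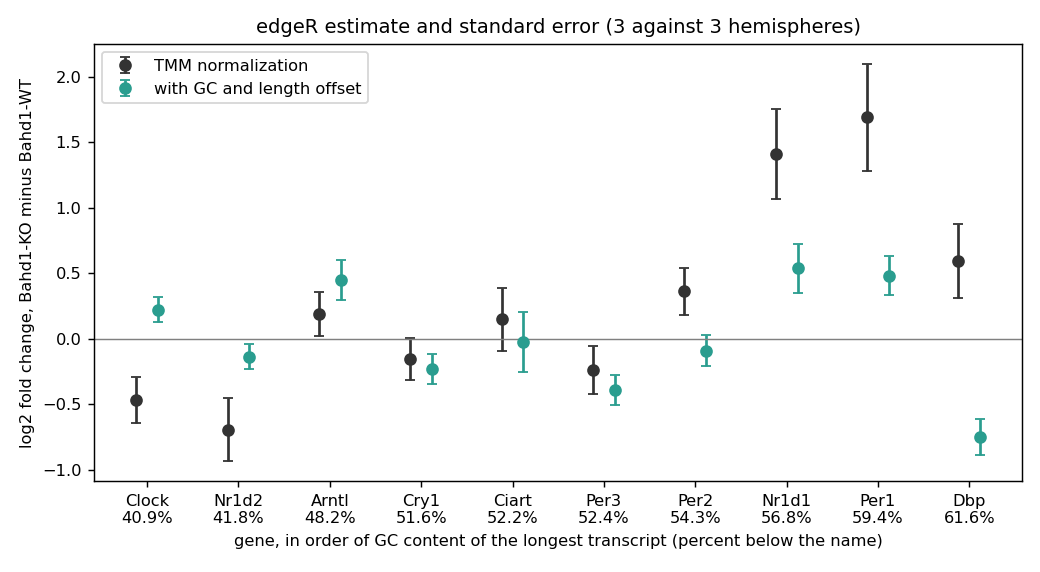
Log2 fold change (Bahd1-KO minus Bahd1-WT) with its standard error in edgeR for each clock gene, in order of GC content, with TMM normalization (black) and with the GC and length offset (green). The estimates of Per1 and Nr1d1 shrink to 0.48 and 0.54, those of Clock and Dbp change sign, and Arntl and Per3 lie further from 0.

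The ratios changed in the same way. After the offset the log2 ratio of Dbp to Arntl was 1.10, 1.16 and 1.35 in Bahd1-WT and 0.17, -0.57 and 0.45 in Bahd1-KO replicates, so that every Bahd1-KO library was lower where most had been higher before. Nr1d1 to Arntl overlapped between the genotypes, at 0.95, 0.76 and 0.38 against 0.39, 0.60 and 1.38. Per3 to Arntl was 0.42, 0.24 and 0.35 in Bahd1-WT and -0.49, -0.93 and -0.046 in Bahd1-KO libraries, without overlap. Nr1d2 to Arntl stayed lower, at 3.03 to 3.18 in Bahd1-WT against 2.05 to 2.92 in Bahd1-KO libraries. Per2 to Arntl was -0.14 to -0.030 against -1.12 to -0.19, also without overlap. Per2 to Cry1, which had not overlapped before, was -0.039 to 0.18 in Bahd1-WT and 0.0997 to 0.28 in Bahd1-KO libraries, with overlap. The mean ratio to Arntl was then higher in Bahd1-KO only for Nr1d1 and Per1, by 0.093 and 0.050. It was lower for Dbp, Per2, Per3, Nr1d2 and Ciart. Bahd1-KO replicate 2, the library with the widest GC gap, had the lowest ratio to Arntl for Dbp, Per2, Per3, Nr1d2 and Ciart.

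Of 18 other genes of the clock pathway, none was called, and 6 had an unadjusted p-value under 0.05 in edgeR, where 31.8% of all genes did. Of these 5 were higher in Bahd1-KO brains and 1 was lower. With upper-quartile factors the pathway counts were 3 higher and 4 lower (all genes 3989 and 4333), and with total counts 6 and 0 (all genes 5351 and 1780). Those higher included the casein kinases that mark PER proteins for decay, Csnk1e (log2 fold change 0.77, adjusted p = 0.0699 in edgeR) and Csnk1d (0.61, adjusted p = 0.0734 in edgeR). Cry2, the partner of Cry1, had 58.8 ± 4.9 CPM (SD, n = 3) in Bahd1-WT and 87.7 ± 19 CPM in Bahd1-KO brains, and its estimate was 0.58 on the log2 scale. The others were Bhlhe40 (DEC1), an E-box repressor, with 0.43, and Npas2, which can stand in for Clock in the forebrain, with 0.50. The gene lower was Rora, an activator of Arntl, which had 259 ± 25 CPM in Bahd1-WT and 177 ± 47 CPM in Bahd1-KO brains (log2 fold change -0.55). Arntl2 and Rorb had the next lowest estimates, -0.47 and -0.40. Over these 18 genes the Spearman correlation of log2 fold change with GC content was 0.85, and with the offset it was -0.61. With the offset, 4 pathway genes had an unadjusted p-value under 0.05, 3 higher (Bhlhe40, Npas2 and Btrc) and 1 lower (Tef, a relative of Dbp, at -0.21). Tef had means of 299.9 and 258 CPM after the offset and did not overlap. Bhlhe40 was then at 0.58 (adjusted p = 0.0736 in edgeR), Npas2 at 0.33 and Csnk1d at 0.17, and all 3 still had every Bahd1-KO library above every Bahd1-WT library. Cry2 was at -0.068, Csnk1e at 0.0048 and Rora at 0.13. Btrc, which helps mark PER proteins for decay, went from 0.15 to 0.97 (adjusted p = 0.0786 in edgeR), and was called under the offset without Bahd1-KO replicate 1, at 1.22 (adjusted p = 0.0102 in edgeR), as were 1177 of 23690 genes. After the offset Btrc had 46.4, 40.6 and 50.9 CPM in Bahd1-WT and 61.6, 134 and 74.8 CPM in Bahd1-KO replicates. The highest, Bahd1-KO replicate 2, had 74.4 CPM without the offset, where the groups overlapped. Btrc and Tef are named after their values were seen.

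Of 6 genes that share triggers with Per1, 2 had an unadjusted p-value under 0.05 in edgeR, both of them activity genes and both higher in Bahd1-KO brains, where 31.8% of all genes passed. With the offset none of the 6 did, where 5456 of 23975 genes passed. Fkbp5, Sgk1 and Tsc22d3, which respond to glucocorticoids, had log2 fold changes from -0.17 to -0.033. Arc, an activity gene, had 25.3, 18.0 and 29.9 CPM in Bahd1-WT and 34.4, 93.1 and 32.2 CPM in Bahd1-KO replicates (log2 fold change 1.13, adjusted p = 0.107 in edgeR), and with the offset its estimate was -0.053. Fos had a log2 fold change of 0.27 and overlapped between genotypes.

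After the offset, the 5 genes whose log2 CPM was most like that of Dbp over the 6 libraries, among 14695 genes, were Ccdc120, Shisa7, Mras, Zswim5 and A830092H15Rik, with Pearson correlations of 0.994 to 0.987. These are a description over 6 points that share their libraries, and none of the 5 is a clock gene of the lists used here.

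Markers of the brain were present in every library, with summed neuronal genes at 6310 to 7467 CPM in Bahd1-WT and 5714 to 7144 CPM in Bahd1-KO. Summed astrocyte genes did not overlap, at 1692 to 1887 CPM in Bahd1-WT and 1463 to 1638 CPM in Bahd1-KO. Most of that sum was Slc1a3 (means 1175 and 913 CPM, and 1019 and 1043 CPM after the offset), while Aldh1l1 was higher in every Bahd1-KO library (means 26.7 and 54.7 CPM). Aldh1l1 stayed so after the offset (means 31.0 and 45.3 CPM), where Slc1a3, Gfap and Aqp4 overlapped. Oligodendrocyte genes were at 4842 to 5645 and 5021 to 7651 CPM. Pituitary genes were highest in Bahd1-KO replicate 3, at 42.2 CPM, and reached 18.7 CPM in Bahd1-WT. The 8 genes typical of the suprachiasmatic nucleus summed to 71.3 to 76.7 CPM in Bahd1-WT and 66.7 to 89.8 CPM in Bahd1-KO libraries. Vip was between 24.6 and 53.3 CPM, Rgs16 between 10.6 and 28.3, Lhx1 between 8.87 and 12.5, Vipr2 between 6.38 and 11.8 and Avp between 0.232 and 5.34 CPM, while Nms, Prok2 and Six6 were under 1 CPM in all libraries. Rgs16 (means 12.2 and 20.4 CPM) and Avp (0.515 and 2.47 CPM) were higher, and Six6 (0.543 and 0.290 CPM) and Nms (0.257 and 0.159 CPM) lower, in every Bahd1-KO library, and after the offset all 4 overlapped. Asmt and Crx of the pineal gland were under 0.1 CPM. The summed level of the pineal genes was 0.601 to 0.709 CPM in Bahd1-WT and 0.466 to 0.873 CPM in Bahd1-KO libraries. Summed choroid plexus genes stood at 260 to 352 CPM in Bahd1-WT and 437 to 1057 CPM in Bahd1-KO libraries, with Bahd1-KO replicate 2 highest. Most of this was Ttr (means 269 and 658 CPM), and Kl was lower in every Bahd1-KO library (means 34.5 and 26.1 CPM). After the offset Ttr was higher in every Bahd1-KO library (means 248 and 754 CPM), and Kl overlapped (means 31.4 and 28.6 CPM). Lung genes reached 100 CPM in Bahd1-WT replicate 1 and 1.397 CPM at most in Bahd1-KO. The part of these in the clock gene levels was not tested.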

How the data were processed

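Read counts per gene were analysed for a brain hemisphere of 3 Bahd1-WT and 3 Bahd1-KO mice, grouped by the titles of the labels. According to the submitters' processing notes, cutadapt (1.11), STAR (2.5.0a) and featureCounts (1.4.6-p3) were used on GRCm38, and the supplementary methods name Tophat2 as well. The authors deposited counts as whole numbers without normalization, and the table held 0 columns of other samples.

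The 23975 genes whose counts summed to 10 or more were tested with edgeR (4.0.16, TMM, quasi-likelihood, genotype as the only factor) in R 4.3.3, with Benjamini-Hochberg adjustment over all of them. DESeq2 (1.42.0) was an alternative. The standard error is the size of the log2 fold change divided by the root of F. The offset came from natural splines on GC content (5 degrees of freedom) and log length (3) that were fitted to log2 CPM in each library over 13261 genes above 1 on the log2 CPM scale. Lengths and GC content came from GENCODE M21. The fits were tested on simulated counts. Other alternatives were other normalizations and filters, leaving out each sample, and the replicate number as a block. The labels do not say that same-numbered mice are related, and their deviations did not correlate positively. Leaving out samples under the offset was added after the data were seen.

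The genes and lists were chosen with earlier results of these data known, and the genes named were the 10 members, Bahd1, pathway genes that did not overlap at an unadjusted p-value under 0.05 or were among the 3 highest and 3 lowest estimates, the 5 most like Dbp (those without the offset are not reported here), and 5 of the 6 response genes. Markers of cell types are named as well, and Thra and Sphk2 for their overlap with clock genes. Depth limits precision, and 3 counts correspond to 0.0315 to 0.0690 CPM. Which of these mice shared a litter is not given in the sources used here.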

Additional observations from a re-analysis of the deposited data

How the results depend on the processing

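The count of clock genes called, 0 with TMM and edgeR, was 2 (Per1 and Nr1d1) with total counts, with DESeq2 either way, and without a filter beyond 1 count. Leaving out samples gave 0 to 2, with 2 without Bahd1-KO replicate 1 and 0 in the other 5 cases. Over all genes the calls went from 2 to 2007 with total counts, 2508 and 2742 with DESeq2, 2770 without the filter and 3988 without Bahd1-KO replicate 1. The count with an unadjusted p-value under 0.05, 4 of 10, ranged from 2 (without Bahd1-WT replicate 2) to 6 (without Bahd1-KO replicate 1, where 10244 of 23690 genes passed), and that of the 18 other pathway genes, 6, from 2 (without Bahd1-WT replicate 2, 4286 of 23427 genes) to 11 (without Bahd1-KO replicate 1), and from 2 to 8 with the offset (8 without Bahd1-KO replicate 1, 6865 of 23690 genes). The number of clock genes without overlap ranged from 5 to 8 (without Bahd1-KO replicate 1, where 14596 of 23975 genes did not overlap, against 9550 with all samples). With the replicate block, 2 pathway genes passed at an unadjusted p-value under 0.05, also under the offset, and 3 clock genes (5 under the offset), where 5231 of all genes passed (3856 under the offset). The block changed no call of a clock gene. Same-numbered samples did not deviate together (mean correlation -0.48, against 0.24 in other pairs). These are deviations from the mean of 3 libraries that also differ in their GC gap. They cannot show whether same-numbered mice were related or handled together.

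The GC and length offset took the Spearman correlation with GC content from 0.84 to -0.042, and turned Dbp to -0.75, Clock to 0.22, Per2 to -0.090 and Ciart to -0.025, and with the block to -0.76, 0.22, -0.094 and -0.068. With samples left out under the offset, Dbp ranged from -0.82 to -0.64, Clock from 0.15 to 0.29, Per2 from -0.14 to -0.0098 and Ciart from -0.32 to 0.17. Arntl, at 0.45 with all samples, ranged there from 0.26 (without Bahd1-KO replicate 2) to 0.60. Without the offset Ciart ranged from -0.061 (without Bahd1-KO replicate 3) to 0.35, Dbp from 0.25 to 0.86, Per2 from 0.29 to 0.50 and Clock from -0.54 to -0.32. The differences of the log2 ratios to Arntl became -1.18 for Dbp, 0.093 for Nr1d1, 0.050 for Per1, -0.52 for Per2, -0.82 for Per3 and -0.49 for Ciart, and that of Per2 to Cry1 0.14. The cause was not tested. Leaving out samples without the offset kept the sign of these differences for Dbp, Nr1d1, Per1, Per3, Nr1d2 and Per2 to Cry1, and not for Per2 (-0.0014 to 0.32) or Ciart (-0.37 to 0.16). A prior count of 1 left each within the spread of replicates. Where 1 sample was left out of a genotype, the remaining 2 carry its spread.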
